A study of Danio rerio with 4 samples.

Results

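The genes of the proteasome were followed in adult zebrafish brain. They were chosen by symbol, as the probe sets with 1 gene symbol in the platform annotation that begins with psm, a letter from a to g and a digit. Where a gene had several such probe sets, the one whose log2 signal averaged highest over the arrays stood for it. The rule found 50 genes of 8793, and 48 of them encode subunits, activators, an inhibitor or assembly factors of the proteasome. The other 2, psmc3ip and psme3ip1, are named after a subunit that their product binds and are given apart. The arrays, of 1 colour, held RNA pooled from brains of adult fish: 2 were labelled cold-stressed (10°C, reached by slow cooling and held for 10 days) and 2 normal (28°C). No strain or transgene is named for either group, and both sexes went into each. They are called cold 1, cold 2, normal 1 and normal 2 by their labels, and the arrays that share a number are called set 1 and set 2. Per the study, its RNA sets came from separate acclimation experiments, and it describes more such sets than the 2 arrays of each label followed here. Neither the labels nor the methods tie the array numbers to those experiments or say how many brains made a pool, and p-values measure only the spread between these pools.

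The proteasome is the main protease of the cytosol and nucleus and degrades proteins that carry ubiquitin chains. Its 20S core is a barrel of stacked rings, in which the outer rings of alpha subunits form the gate and the inner rings of beta subunits hold the active sites. The 19S regulatory particle caps the barrel, recognizes ubiquitin, and unfolds substrates with a ring of ATPases. In the brain it removes damaged proteins and takes part in the turnover of synaptic proteins.

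Arrays with the same label were less alike than arrays with different labels and numbers, so the labels of some arrays go against their similarity. Pearson's r was taken over the 9301 probe sets that passed a filter on low signal. It was 0.902 between cold 1 and cold 2, 0.883 between normal 1 and normal 2, and 0.957 between cold 1 and normal 2. It was 0.891 between cold 1 and normal 1, 0.9335 between cold 2 and normal 1, and 0.9365 between cold 2 and normal 2. Cold 2 was thus about as close to normal 2 as to normal 1. No array was moved to the other group: cold and normal below mean the deposited labels, and each set is also given on its own. Markers of other cells also differed between the arrays. The summed signal of 5 red blood cell genes was 19657 on cold 1 and 11960 on cold 2, against 13705 on normal 1 and 20823 on normal 2. That of 7 muscle genes was 4401 on cold 1 and 1266 on cold 2, against 1078 and 1114 on normal 1 and normal 2. None of the defining markers of either list was at 0, which does not show that each was present, since no detection calls are given. The muscle gene pvalb1, for 1, had 31.8 and 49.9 on normal 1 and normal 2. The 8 measured neuron markers, such as the synaptic gene snap25a, were kept by the filter, and their summed signal was 24877 and 20075 on cold 1 and cold 2 against 17648 and 23400 on normal 1 and normal 2.

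In set 1 most proteasome genes had less signal on the cold array, and in set 2 most had more. Of the 48 genes, 47 passed the filter, and psmb13a, with a signal between 58.8 and 67.8, did not. Of these 47, 39 were lower on cold 1 than on normal 1, as were 45.8% of all probe sets kept, and 40 were higher on cold 2 than on normal 2, as were 50.2% of all. Both held at 35 of the 47 (74.5%), against 32.8% of all probe sets. The reverse of both held at 3 genes, psmd4a, psmd9 and psmg3, against 36.8% of all. The highest signal was on normal 1 for 29 of the 47 genes, and the lowest was on normal 2 for 26. Over all probe sets, normal 1 was the highest array at 24.9% and normal 2 the lowest at 21.1%. Both held at 20 of the 47 (42.6%), with the cold arrays between the normal ones, against 12% of all probe sets. In bulk tissue, a smaller share of cells that express a gene and less RNA per cell cannot be told apart.

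**Figure D1:**
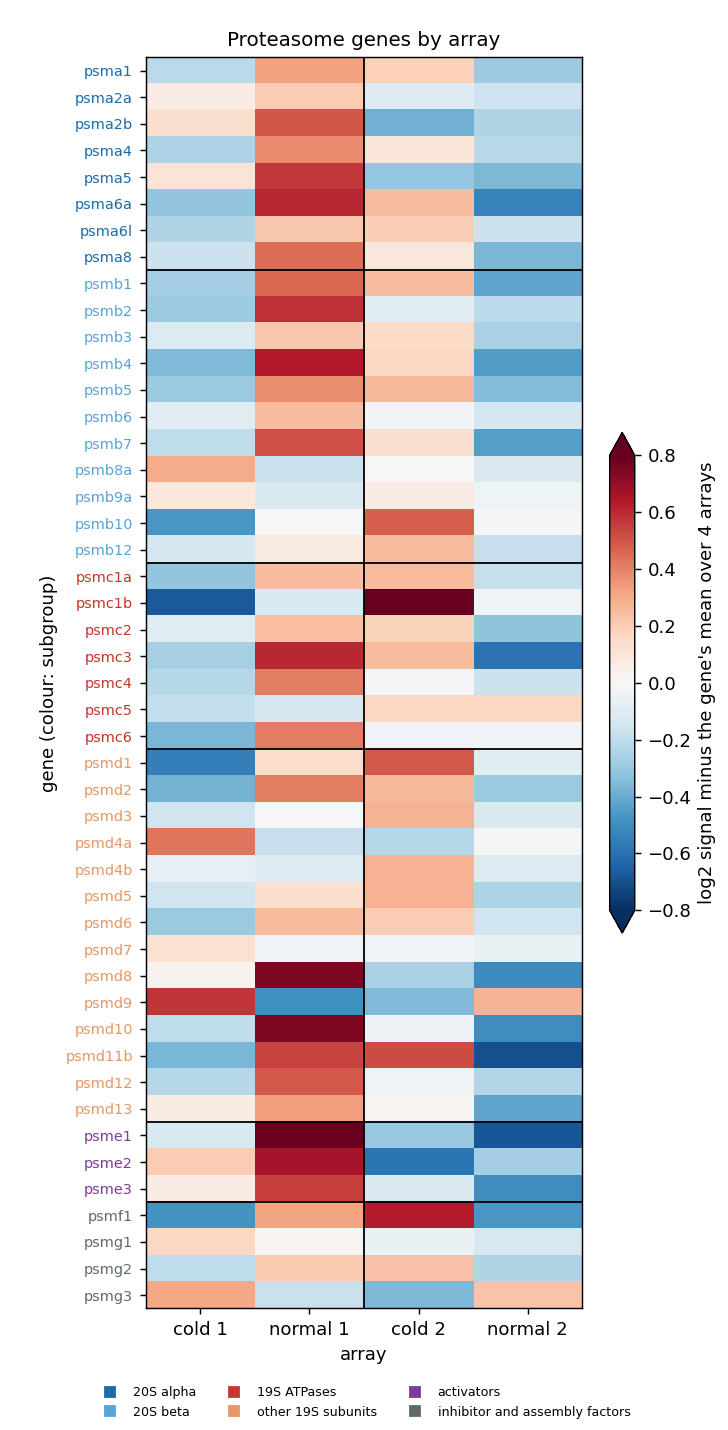
Heat map of the 47 proteasome genes that passed the filter (rows, coloured by subgroup) on the 4 arrays (columns, cold left of normal within each number); colour is the log2 signal minus the gene's mean over the arrays, from blue (low) to red (high). Normal 1 is the highest array for 29 genes and normal 2 the lowest for 26, and the arrays labelled normal lie at opposite ends for 20 of the 47.

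The steps were mostly below 2-fold. The median log2 ratio of the 47 genes was -0.49 for cold 1 over normal 1, against 0.06 for all probe sets kept, and 0.39 for cold 2 over normal 2, against 0.00 for all. Each ratio within a set rests on 1 array per condition and has no replicate, hence no test. In set 1, 19 of the 47 genes (40.4%) were lower on the cold array by 1.5-fold or more, against 13.6% of all probe sets, and 2 (psmd4a and psmd9) were higher by that much, against 20.8% of all. On cold 2, 8 of the 47 were at least 1.5-fold higher than on normal 2 (17%), against 9.9% of all, and 2 (psmd9 and psmg3) were lower, against 12.1% of all. At 2-fold, psme1 was lower and psmd9 higher in set 1, and psmd11b and psmf1 were higher in set 2. These are 2.13% of the 47 genes in each direction in set 1, against 5.13% of all probe sets lower and 8.79% higher. In set 2 they are 4.26%, against 2.23% of all higher. At least 2-fold lower in set 2 were 0 of the 47, against 4% of all.

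With the labels as given, no proteasome gene passed the test between cold and normal. In limma, 0 of the 47 genes passed an adjusted p of 0.05 in either direction (it was 0.99997 for each of them), as did 0% of the 9301 probe sets, and 0 of the 47 had an unadjusted p under 0.05. At that unadjusted level, 18 probe sets (0.194%) were higher and 28 (0.301%) lower in cold. The log2 differences of the 47 genes, cold minus normal, ran from -0.43 (psme1) to 0.30 (psmb8a), 18 above and 29 below 0. Their median was -0.04, against 0.04 over all probe sets kept, and the median standard error was 0.42. Arrays of 1 label lay farther apart: the median log2 difference of the 47 genes was -0.33 for cold 1 minus cold 2 and 0.57 for normal 1 minus normal 2. Across labels it was 0.10 for cold 1 minus normal 2 and -0.14 for cold 2 minus normal 1. Leaving out cold 1 or normal 1 turned the sign of the labelled median, to 0.13 without cold 1 and 0.21 without normal 1. It was -0.22 without cold 2 and -0.30 without normal 2. Both cold arrays lay above both normal arrays at 4 of the 47 genes (8.51%), psmb8a, psmb9a, psmd4b and psmd7, against 9.2% of all probe sets. Both lay below them at 1, psmc6 (2.13%), against 6.45% of all.

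The alpha subunits of the 20S core, which form the gated outer rings, had the pattern of most members in set 1 throughout. All 8 measured genes were lower on cold 1 than on normal 1, with log2 ratios from -0.92 to -0.15 and a median of -0.50. On cold 2, 7 of the 8 were higher than on normal 2, with ratios from -0.15 to 0.78 and a median of 0.34. The gene with the widest steps was psma6a, with signals of 939 on cold 1 and 1387 on cold 2, against 1780 on normal 1 and 807 on normal 2. The normal arrays were thus its highest and its lowest, and its labelled log2 difference was -0.07 (standard error 0.49). The signals of psma4 were 1648 and 2093 on cold 1 and cold 2 against 2548 and 1677 on normal 1 and normal 2. Both psma8 and psma1 followed the same order of sets: psma8 had 1682 and 2020 on cold 1 and cold 2 against 2588 and 1473 on normal 1 and normal 2. For psma1 the signals were 1238 and 1635 on the cold arrays against 1799 and 1174 on the normal arrays.

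The paralogs psma2a and psma2b, which encode the same type of alpha subunit, varied less in set 2. The gene psma2a had signals of 814 and 727 on cold 1 and cold 2 against 901 and 697 on normal 1 and normal 2. Its paralog psma2b had 741 and 519 on the cold arrays against 958 and 575 on the normal arrays, the only alpha gene that was lower on cold 2 than on normal 2. The alpha gene psma5 was also flat in set 2, at 565 on cold 2 against 545 on normal 2, while in set 1 it had 752 on cold 1 against 1038 on normal 1. The remaining gene, psma6l, had low signals of 74.2 and 101 on cold 1 and cold 2 against 102 and 77.9 on normal 1 and normal 2.

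The beta subunits of the standard core, psmb1 to psmb7, went one way within each set. All 7 were lower on cold 1 than on normal 1, with log2 ratios from -0.99 to -0.33 and a median of -0.72, and all 7 were higher on cold 2 than on normal 2, from 0.12 to 0.67 with a median of 0.57. The structural gene psmb4 had signals of 1312 and 1877 on cold 1 and cold 2 against 2610 and 1227 on normal 1 and normal 2, that is 0.503-fold in set 1 and 1.53-fold in set 2. Its neighbour in the ring psmb1 had 1677 and 2415 on the cold arrays against 2804 and 1518 on the normal arrays. The labelled log2 difference of psmb1 was -0.04 (standard error 0.40), and the normal arrays again held the highest and the lowest value.

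The catalytic subunits of the standard core are psmb5 (chymotrypsin-like), psmb6 (caspase-like) and psmb7 (trypsin-like). The signals of psmb5 were 833 and 1232 on cold 1 and cold 2 against 1324 and 804 on normal 1 and normal 2, and those of psmb7 were 1472 and 1856 on the cold arrays against 2428 and 1249 on the normal arrays. The steps of psmb6 were smaller, with 1362 and 1426 on cold 1 and cold 2 against 1719 and 1310 on normal 1 and normal 2. Of the noncatalytic genes, psmb2 stood apart on normal 1 only, with 867 and 999 on the cold arrays against 1595 and 920 on normal 1 and normal 2. The signals of psmb3 were 1630 and 1962 on the cold arrays against 2047 and 1471 on the normal arrays.

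The immune-type beta subunits replace the catalytic ones where interferon gamma acts. The 4 kept genes were all higher on cold 2 than on normal 2, and in set 1 they were split, 2 above and 2 below normal 1 on cold 1. In mammals psmb8, psmb9 and psmb10 take the places of psmb5, psmb6 and psmb7, and psmb12 and psmb13a are related genes of fish. The gene psmb8a had signals of 143 and 116 on cold 1 and cold 2 against 103 and 107 on normal 1 and normal 2, so both cold arrays were above both normal arrays. Its log2 difference was 0.30 (standard error 0.29), about as large as its error. For psmb9a the signals were 89.0 and 87.4 on cold 1 and cold 2 against 77.4 and 81.9 on normal 1 and normal 2. These 2 genes were the only kept beta genes that were higher on cold 1 than on normal 1. They lay near the median signal of all probe sets (95.9 to 102 on the 4 arrays), where differences are less certain. Within each set psmb10 had the sign of the standard core, with 303 and 582 on cold 1 and cold 2 against 418 and 416 on normal 1 and normal 2, and psmb12 had 122 and 161 on the cold arrays against 142 and 119 on the normal arrays. The unfiltered gene psmb13a had 67.8 and 62.3 on cold 1 and cold 2 against 58.8 and 65.0 on normal 1 and normal 2. The list of interferon gamma targets had 10 measured genes, of which 7 were kept. Of these 7, 1 was lower and 6 were higher on cold 1 than on normal 1, 4 were higher on cold 2 than on normal 2, and 0 passed limma. The chaperone gene tapbp.1 of peptide loading had 269 and 583 on cold 1 and cold 2 against 477 and 319 on normal 1 and normal 2, while the invariant chain gene cd74b had 1802 and 901 on the cold arrays against 936 and 1274 on the normal arrays. Its paralog cd74a had 3570 and 2985 on cold 1 and cold 2 against 2279 and 4331 on normal 1 and normal 2, and b2m, the light chain of class I molecules, had 2109 and 2042 on the cold arrays against 2002 and 1711 on the normal arrays.

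The ATPases of the 19S base unfold substrates and open the gate of the core. All 7 genes were lower on cold 1 than on normal 1, with log2 ratios from -0.87 to -0.07 and a median of -0.57, and 5 of the 7 were higher on cold 2 than on normal 2, with a median of 0.44 over all 7. The gene psmc3 had signals of 1222 and 1754 on cold 1 and cold 2 against 2236 and 979 on normal 1 and normal 2. Its fold was 0.547 in set 1 and 1.79 in set 2, and its labelled log2 difference was -0.02 (standard error 0.48). For psmc1b, the signals were 792 and 2218 on cold 1 and cold 2 against 1159 and 1236 on normal 1 and normal 2, so here the cold arrays were the extremes. Its paralog psmc1a had 953 and 1414 on the cold arrays against 1412 and 1046 on the normal arrays.

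The other ATPase genes had unlike ratios, each of which rests on 1 array per condition. The signals of psmc2 were 1132 and 1368 on cold 1 and cold 2 against 1433 and 968 on normal 1 and normal 2. In set 2, psmc5 and psmc6 were level, at 0.998-fold and 0.997-fold. In set 1, psmc5 was also nearly level, at 1005 on cold 1 against 1052 on normal 1, whereas psmc6 had 898 on cold 1 against 1537 on normal 1. The gene psmc6 was the only member with both cold arrays (898 and 1136) below both normal arrays (1537 and 1140). Its log2 difference was -0.39 (standard error 0.38). The signals of psmc4 were 1046 and 1215 on cold 1 and cold 2 against 1629 and 1087 on normal 1 and normal 2.

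The subunits of the 19S particle without ATPase activity, with the base assembly factors that carry psmd symbols, differed among themselves. Of 14 genes, 10 were below normal 1 on cold 1 and 12 were above normal 2 on cold 2. Their log2 ratios ran from -0.95 to 1.06 in set 1, with a median of -0.42, and from -0.63 to 1.23 in set 2, with a median of 0.39. The gene psmd11b, whose product clamps the 19S particle to the core, had the highest ratio of any member in set 2. Its signals were 307 and 568 on cold 1 and cold 2 against 575 and 242 on normal 1 and normal 2, or 0.533-fold in set 1 and 2.34-fold in set 2. The labelled log2 difference was 0.16 (standard error 0.57), and it was below 0 without cold 2 or without normal 2.

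The scaffold subunits psmd1 and psmd2 had the common pattern. For psmd1 the signals were 558 and 1144 on cold 1 and cold 2 against 902 and 768 on normal 1 and normal 2, and for psmd2 they were 343 and 537 on the cold arrays against 592 and 364 on the normal arrays. The lid genes psmd3 and psmd6 had it with smaller steps: psmd3 had 1969 and 2664 on cold 1 and cold 2 against 2195 and 2027 on normal 1 and normal 2. For psmd6 the signals were 1262 and 1786 on the cold arrays against 1847 and 1387 on the normal arrays. Of the further lid genes, psmd8 was clearly highest on normal 1, with 921 and 752 on cold 1 and cold 2 against 1513 and 633 on normal 1 and normal 2. The same held for psmd12, with 766 and 874 on cold 1 and cold 2 against 1260 and 762 on normal 1 and normal 2. The gene psmd13 was lowest on normal 2, with 928 and 903 on cold 1 and cold 2 against 1121 and 665 on normal 1 and normal 2. The lid gene psmd7, partner of the deubiquitinating subunit, was nearly level, with 861 and 775 on cold 1 and cold 2 against 773 and 762 on normal 1 and normal 2.

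The paralogs psmd4a and psmd4b, both genes of a ubiquitin receptor of the 19S particle, differed from each other. The signals of psmd4a were 831 and 528 on cold 1 and cold 2 against 545 and 612 on normal 1 and normal 2, which is higher in set 1 and lower in set 2, the reverse of most members. Those of psmd4b were 427 and 543 on cold 1 and cold 2 against 417 and 415 on normal 1 and normal 2, so cold 2 alone was high. The probe sets of paralogs can share targets, and the files do not show how far.

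Chaperones of base assembly known from yeast and mammals also carry psmd symbols, and they did not go together. The gene psmd9 was the only member that was 2-fold higher on cold 1 than on normal 1, with signals of 256 and 135 on cold 1 and cold 2 against 122 and 208 on normal 1 and normal 2. This is 2.09-fold in set 1 and 0.647-fold in set 2, with a labelled log2 difference of 0.22 (standard error 0.46) that was below 0 without cold 1 or without normal 1. Its second probe set gave 246 and 101 on the cold arrays against 116 and 141 on the normal arrays. In contrast psmd10, the gene of gankyrin, had 188 and 210 on cold 1 and cold 2 against 363 and 153 on normal 1 and normal 2. The signals of psmd5 were 228 and 310 on the cold arrays against 278 and 215 on the normal arrays.

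**Figure D2:**
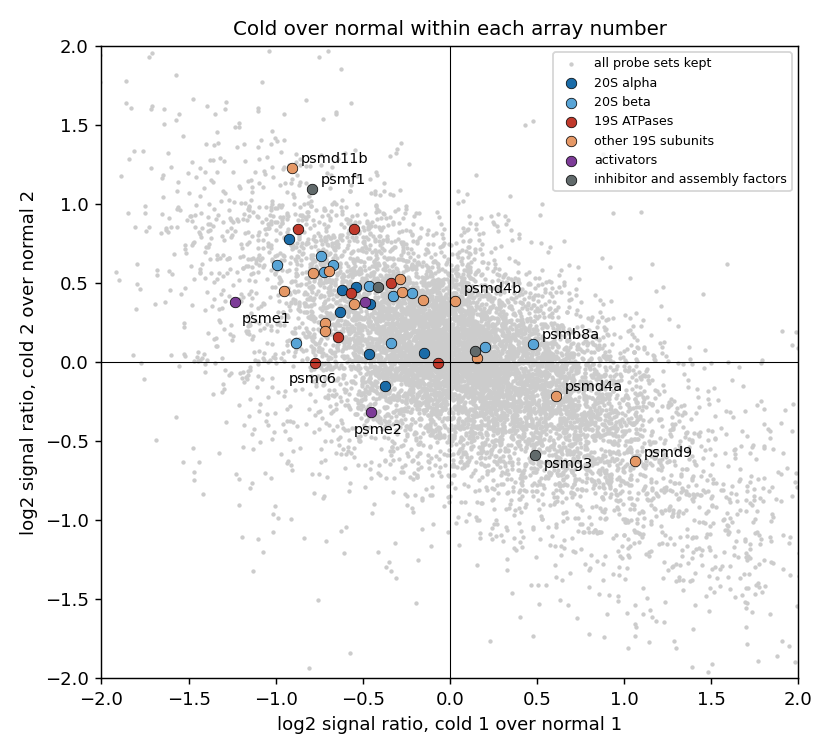
Log2 signal ratio of cold 1 over normal 1 (horizontal) against that of cold 2 over normal 2 (vertical) for 47 proteasome genes, coloured by subgroup, over all 9301 probe sets kept (grey; points beyond 2 on either axis are not shown). Most members, 35 of 47, lie at the upper left, and psmd9, psmg3 and psmd4a lie in the lower right.

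The ratios of the 2 sets, which share no array, ran against each other. Across the 47 genes Pearson's r between them was -0.67, and across all 9301 probe sets it was -0.63. Both values describe points that come from the same 4 arrays, and genes are not independent replicates. The members thus lay along the main axis of all probe sets, mostly at its upper left side.

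The activators bind the ends of the core in place of the 19S particle. The genes psme1 and psme2 encode the subunits of the activator that is induced by interferon gamma, and psme3 encodes a nuclear one. The signals of psme1 were 221 and 194 on cold 1 and cold 2 against 518 and 149 on normal 1 and normal 2. Normal 1 alone was thus high, the ratio was 0.426-fold in set 1, the lowest of any member, and 1.30-fold in set 2. Its labelled log2 difference was -0.43 (standard error 0.61), and it was 0.47 without normal 1. Its partner psme2 had 289 and 167 on cold 1 and cold 2 against 395 and 207 on normal 1 and normal 2, lower on the cold array in both sets. For psme3 the signals were 640 and 568 on the cold arrays against 896 and 436 on the normal arrays. All 3 genes were highest on normal 1. Their lowest arrays differed, normal 2 for psme1 and psme3 and cold 2 for psme2.

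The inhibitor gene psmf1, whose product binds the core and can block it, had wide steps. Its signals were 376 and 810 on cold 1 and cold 2 against 650 and 379 on normal 1 and normal 2, or 0.579-fold in set 1 and 2.14-fold in set 2. The labelled log2 difference was 0.15 (standard error 0.54). Its second probe set gave 348 and 496 on the cold arrays against 812 and 266 on the normal arrays. The assembly chaperones psmg1, psmg2 and psmg3 help to build the alpha ring. The first 2 are pair partners. On its brightest probe set psmg1 was nearly level within each set. There it had 299 and 257 on cold 1 and cold 2 against 271 and 245 on normal 1 and normal 2. Its second probe set was level in set 1 only, with 185 and 278 on the cold arrays against 192 and 198 on the normal arrays. The signals of psmg2 were 264 and 358 on the cold arrays against 352 and 257 on the normal arrays. The third, psmg3, had 349 and 219 on cold 1 and cold 2 against 249 and 330 on normal 1 and normal 2, the reverse of most members.

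**Figure D3:**
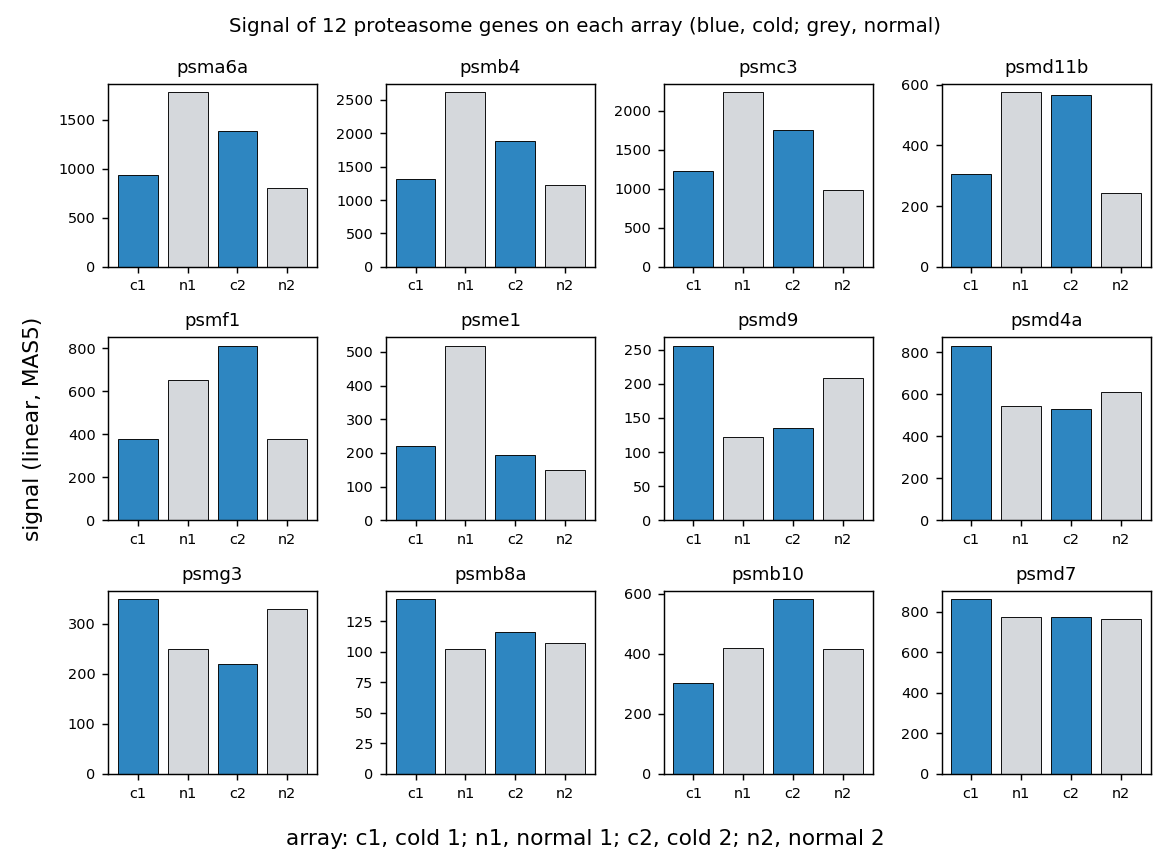
Linear signal of 12 proteasome genes on each array, with cold (blue) left of normal (grey) within each number; each bar is 1 array and has no error bar. In psma6a, psmb4, psmc3, psmd11b and psmf1 normal 1 and cold 2 are high, in psmd9 and psmg3 cold 1 and normal 2 are high, and psmd7 lies between 762 and 861 throughout.

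The subgroups did not separate from one another. The median log2 ratio in set 1 was -0.46 for the 19 kept genes of the 20S core, -0.57 for the 7 ATPases, -0.42 for the 14 other psmd genes and -0.49 for the 3 activators. In set 2 these medians were 0.42, 0.44, 0.39 and 0.38. The 4 genes of the inhibitor and the assembly chaperones had medians of -0.14 and 0.27. The ranges of all these classes overlapped within each set. Within the 20S core, the constitutive beta genes had medians of -0.72 and 0.57 and the 4 kept immune-type genes had -0.01 and 0.28. These are descriptions of small classes, and no test was made between them. With the labels as given, the medians of the log2 difference were -0.05 for the 20S core, -0.03 for the ATPases, 0.09 for the other psmd genes, -0.38 for the activators and 0.07 for the inhibitor and assembly chaperones. Leaving out normal 1 turned the median of the activators to 0.47, and leaving out cold 2 turned it to 0.01.

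**Figure D4:**
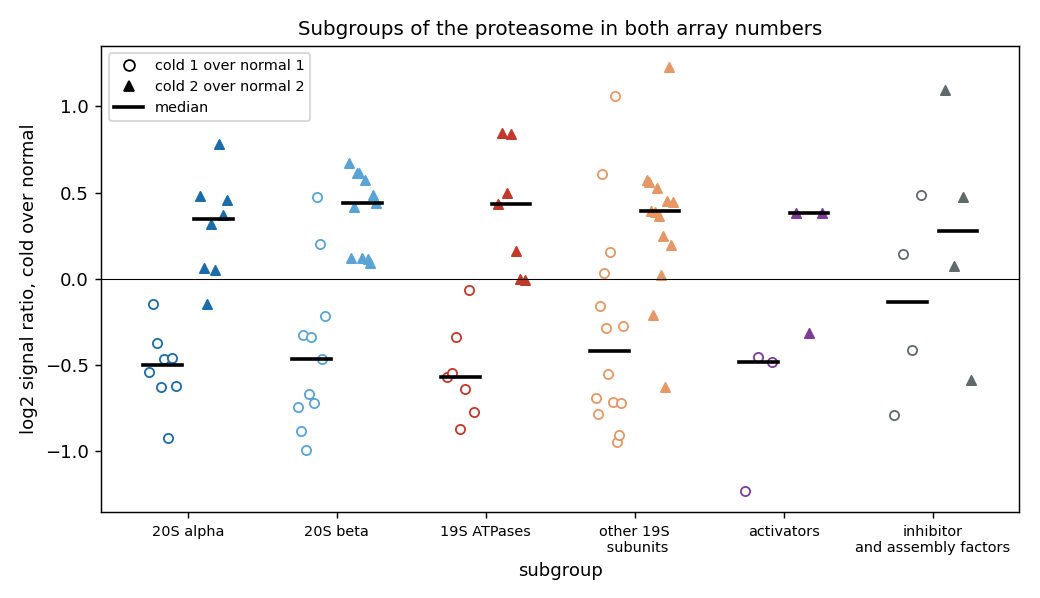
Log2 signal ratio of cold over normal for each gene by subgroup, in set 1 (open circles) and set 2 (filled triangles), with the median of each as a bar. The medians lie between -0.57 and -0.14 in set 1 and between 0.27 and 0.44 in set 2, and the subgroups overlap.

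A further 7 probe sets measured 6 of the genes again. They had the sign of the brightest probe set 6 of 7 times in set 1 and 7 of 7 times in set 2. The exception was psmg1 in set 1, with log2 ratios of 0.14 on its brightest probe set and -0.05 on the other. In set 2 these ratios were 0.07 and 0.49. For psmc1b the second probe set had 492 and 992 on cold 1 and cold 2 against 1085 and 488 on normal 1 and normal 2, so the normal arrays were its extremes, unlike on its brightest probe set. The 2 genes named after a subunit did not share the pattern. The signals of psme3ip1, whose product binds the nuclear activator, were 218 and 127 on cold 1 and cold 2 against 139 and 208 on normal 1 and normal 2. The gene psmc3ip, which encodes a factor of meiotic recombination, had low signals of 44.0 and 55.0 on the cold arrays against 66.5 and 70.1 on the normal arrays and did not pass the filter.

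Genes that work with the proteasome were mixed. Of 14 kept genes of receptors, deubiquitinases and other factors at the 26S particle, 8 were below normal 1 on cold 1 and 7 were above normal 2 on cold 2, and 0 passed limma. Their median log2 ratios were -0.24 and 0.07. The ubiquitin receptor gene adrm1 had the common pattern, with 576 and 1370 on cold 1 and cold 2 against 1238 and 802 on normal 1 and normal 2. So did ubqln4, a shuttle factor, with 361 and 947 on the cold arrays against 627 and 478 on the normal arrays. The stress-inducible gene zfand2a had 268 and 337 on cold 1 and cold 2 against 597 and 221 on normal 1 and normal 2. Going the other way were usp14, a deubiquitinase of the particle, and zfand5b. The signals of usp14 were 416 and 282 on cold 1 and cold 2 against 111 and 518 on normal 1 and normal 2, and those of zfand5b were 1414 and 465 on the cold arrays against 607 and 903 on the normal arrays. The shuttle factor gene rad23ab, the only gene of the list past 2-fold in set 2, had 94.1 and 46.6 on the cold arrays against 80.2 and 99.0 on the normal arrays. The small 19S subunit gene sem1 had 1256 and 1003 on cold 1 and cold 2 against 883 and 1206 on normal 1 and normal 2. The core maturation gene pomp had 1501 and 1368 on cold 1 and cold 2 against 1842 and 1563 on normal 1 and normal 2. Both cold arrays were thus lower, as at 6.45% of all probe sets, with a log2 difference of -0.24 (standard error 0.33).

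The segregase vcp and its cofactors pull ubiquitylated proteins out of complexes and membranes. Of 11 genes, 9 were below normal 1 on cold 1 and 9 were above normal 2 on cold 2, with medians of -0.45 and 0.56 and 0 past limma. The gene vcp had signals of 1302 and 1771 on cold 1 and cold 2 against 2875 and 1205 on normal 1 and normal 2, and its cofactor faf1 had 202 and 282 on the cold arrays against 424 and 219 on the normal arrays. The membrane cofactor gene faf2 had 1187 and 2032 on cold 1 and cold 2 against 1594 and 1052 on normal 1 and normal 2. The channel gene derl1, of export from the endoplasmic reticulum, had 945 and 679 on the cold arrays against 1225 and 701 on the normal arrays. The cytosolic chaperonin, a folding machine, had the pattern at all 8 subunits, with medians of -0.57 and 0.61 and 0 past limma. One of them, cct5, had 2109 and 4147 on cold 1 and cold 2 against 3891 and 2330 on normal 1 and normal 2. For cct2 the signals were 1376 and 2850 on the cold arrays against 2663 and 1656 on the normal arrays, and for cct6a they were 1974 and 2609 on the cold arrays against 2620 and 2120 on the normal arrays. These lists thus had the same signs as most proteasome genes in both sets.

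Of 5 genes of ubiquitin and related modifiers, 2 were below normal 1 on cold 1 and 3 were above normal 2 on cold 2, with 0 past limma. The polyubiquitin gene ubb had 8928 and 11207 on cold 1 and cold 2 against 13623 and 7677 on normal 1 and normal 2. The fusion gene rps27a of ubiquitin and a ribosomal protein was flatter, with 6597 and 7615 on cold 1 and cold 2 against 7602 and 6853 on normal 1 and normal 2. For sumo3a the signals were 2076 and 1647 on the cold arrays against 1606 and 1560 on the normal arrays. The modifier gene sumo2b went the other way, with 1611 and 710 on the cold arrays against 493 and 1252 on the normal arrays. Factors of the Nrf family include, in mammals, one that drives proteasome genes when proteasome activity falls short. The list of the family and its partners had 3 kept genes, and 0 passed limma. Only nfe2l2a (Nrf2) of them is an Nrf factor, and no gene of nfe2l1 (Nrf1) was measured in the list. The gene nfe2l2a had 123 and 99.7 on cold 1 and cold 2 against 177 and 156 on normal 1 and normal 2. Both cold arrays were thus lower, as at 6.45% of all probe sets, with a log2 difference of -0.59 (standard error 0.31) for nfe2l2a. Its repressor keap1a had 98.9 and 211 on the cold arrays against 259 and 127 on the normal arrays, and nfya had 320 and 194 on the cold arrays against 83.6 and 310 on the normal arrays. Of 8 genes listed as targets of Nrf2, which include the finTRIM gene ftr82 listed in error, 6 were below normal 1 on cold 1 and 5 were above normal 2 on cold 2, with 0 past limma. One of them, the peroxiredoxin gene prdx1, had 445 and 362 on cold 1 and cold 2 against 1168 and 358 on normal 1 and normal 2. The quinone reductase gene nqo1 went against the common signs in both sets. It had 220 and 92.0 on the cold arrays against 61.6 and 162 on the normal arrays. The ferritin gene fth1a was nearly level, with 10494 and 11501 on cold 1 and cold 2 against 11907 and 11216 on normal 1 and normal 2, and txnrd3, of a thioredoxin reductase, had 686 and 1041 on the cold arrays against 1023 and 950 on the normal arrays.

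**Figure D5:**
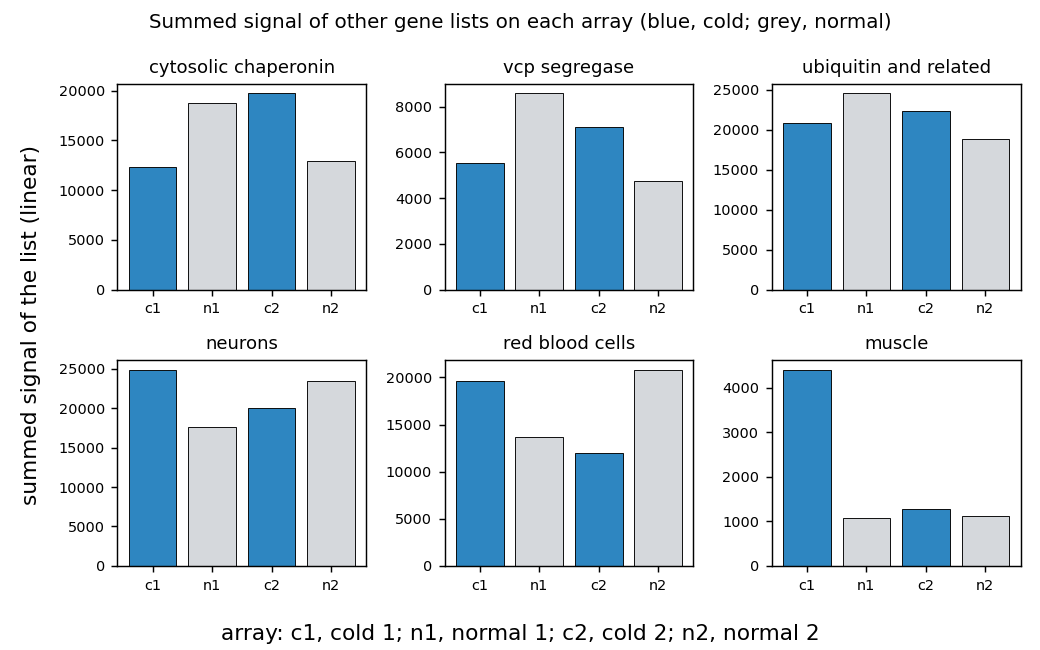
Summed linear signal of 6 other gene lists on each array, with cold (blue) left of normal (grey) within each number. The chaperonin and vcp lists are higher on normal 1 and cold 2, red blood cell genes are higher on cold 1 and normal 2, and muscle genes are high on cold 1 only (4401, against 1078 to 1266 on the others).

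The red blood cell list moved with the proteasome genes in the opposite sense in both sets, and its part in the results was not tested. All 5 of its kept genes were higher on cold 1 than on normal 1, with a median log2 ratio of 1.53, and all 5 were lower on cold 2 than on normal 2, with a median of -1.43. The muscle list moved in set 1, with a median of 2.09, and was close to level in set 2, with a median of 0.11. The medians of the proteasome genes were -0.49 in set 1 and 0.39 in set 2, and the part of muscle RNA in them was not tested. Of the 8 neuron genes, 7 were higher on cold 1 than on normal 1 and 7 lower on cold 2 than on normal 2. Their medians were 0.58 and -0.28, also opposite in sign to those of the proteasome genes. The lists of microglia and leukocytes, radial glia and astroglia, and oligodendrocytes had medians of smaller size than the red blood cell list. The 5 kept genes of microglia and leukocytes had medians of 0.05 and 0.31, and 5 of radial glia and astroglia 0.29 and -0.09. The 3 of oligodendrocytes had 0.26 and 0.03. Ratios in the radial glia list ran from -1.51 to 0.70 in set 1 and from -0.40 to 0.90 in set 2. Those of the microglia list ran from -0.82 to 0.95 and from -0.54 to 0.56. The radial glia gene gfap had the signs of most proteasome genes. Its signals were 376 and 666 on the cold arrays against 1069 and 357 on the normal arrays. In its list, 4 genes were above normal 1 on cold 1 and 3 were below normal 2 on cold 2. The only kept endothelial gene, kdrl, had 347 and 233 on cold 1 and cold 2 against 149 and 282 on normal 1 and normal 2. The ratio of the 3′ to the 5′ control probe set of GAPDH, a sign of RNA integrity, was 0.968 and 1.35 on cold 1 and cold 2 against 1.16 and 1.25 on normal 1 and normal 2. The actin control is named acta1, and acta1a is a gene of the muscle list. Its ratio was 12.2 and 2.12 on cold 1 and cold 2 against 2.22 and 2.41 on normal 1 and normal 2. The 5′ signal of this control was 77.1 on cold 1 and 76.7 to 82.8 on the other arrays. The high ratio on cold 1 thus came with a high 3′ signal. The summed muscle list was also high on cold 1 only, at 4401 against 1078 to 1266. Its acta1a probe set was not, with 89.2 on cold 1 and 106 on normal 1. The part of muscle RNA in the actin ratio was not tested. The part of these ratios in the results of set 1 was not tested.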

How the data were processed

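Arrays were grouped by their labels, 2 cold and 2 normal. The authors hybridized labelled RNA of pooled brains to Affymetrix Zebrafish Genome Arrays, computed signals with Affymetrix software (the submitters' processing notes name MAS5 and no version) and deposited a linear intensity for 15617 probe sets per array. Scaling target, detection calls and filters are not stated. If arrays were scaled to 1 target, a shift of most transcripts one way would not show. Trimmed array means (2% off either tail) were 242 to 255, within the ratio of 1.2 set as the limit, so no further scaling was done. The number of arrays limits the precision of every value.

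After 115 control probe sets were left out, log2 of the intensity was taken for 15502 probe sets, of which 10795 had 1 gene symbol, 135 several and 4572 none in the platform annotation. A current gene table (GRCz12tu) held 10711 of them and was used for names only. Probe sets whose mean log2 signal reached the 40th percentile (9301) were fitted with limma 3.58.1 in R 4.3.3. The fit was unpaired and two-sided with a variance trend, and used Benjamini-Hochberg over all 9301 at a threshold of 0.05. Its code was tried on simulated arrays with independent noise of 1 spread. The measured arrays are not like that, so the trial says nothing about the calls made here. The methods compared the 2 labels, unpaired, with SAM, whose test works by relabelling arrays. SAM was not used here. Any member could be named. The rule asked for the signals of the 3 members of each class with the widest ratio in set 2, the 3 brightest, the immune-type subunits, the activators and members against the common signs, and, in the lists, of genes past 2-fold and the 3 brightest; the other members' signals were added. The members and lists were chosen with earlier results of these data known. Sequences were not analysed here. The alternatives tried were scaling by quantiles or by the array median, adding 16 before the log2, dropping the filter or raising it to the 60th percentile, no trend, the replicate number as a block, averaging the probe sets of a gene, and leaving out each array.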

Additional observations from a re-analysis of the deposited data

Results flagged for a closer look

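The sign of every class differed between the numbers in the labels, a difference that was not tested since each set holds 1 array per condition. The median log2 ratio of cold 1 over normal 1 was -0.49 for all proteasome genes, -0.46 for the 20S core, -0.50 for its alpha and -0.46 for its beta genes, -0.57 for the ATPases, -0.42 for the other psmd genes, -0.49 for the activators and -0.14 for the inhibitor and assembly chaperones. For cold 2 over normal 2 the medians of the same classes were 0.39, 0.42, 0.34, 0.44, 0.44, 0.39, 0.38 and 0.27. The 3′ actin (acta1) control probe set, outside the tested data, had a signal of 938 on cold 1 and 175 on cold 2, against 180 and 185 on normal 1 and normal 2. The summed signal of the muscle list was also high on cold 1 only.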

How the results depend on the processing

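Of the proteasome genes, 0 passed limma under every alternative run. Over all probe sets 0 passed under each alternative planned for which this was counted, with the replicate number as a block as well as without it. It was not counted with the probe sets of a gene averaged. The correlation of the deviations of same-numbered arrays was -0.30, and with crossed numbers as a block, an alternative chosen after seeing the data, 1 probe set and 0 proteasome genes passed. The block changed no other call. The count at an unadjusted p under 0.05 was 46, and it was 154 without the filter, 18 at the 60th percentile, 122 with the crossed block and 54 to 354 leaving out 1 array. The medians of every class kept their sign in both sets and in the labelled comparison under the scalings, the filters, the added 16 and the averaging of probe sets. For all proteasome genes these medians ran from -0.57 to -0.48 in set 1 and from 0.37 to 0.43 in set 2. Without the immune-type and dimmest members of the 20S core (psma6l, psmb8a, psmb9a, psmb10 and psmb12), chosen after seeing the data, its medians were -0.62 and 0.44. Leaving out 1 array, the labelled medians ran from -0.30 to 0.21 for all genes, from -0.39 to 0.26 for the 20S core, from -0.35 to 0.22 for the ATPases, from -0.23 to 0.20 for the other psmd genes, from -0.85 to 0.47 for the activators and from -0.08 to 0.22 for the inhibitor and assembly chaperones. In the same way the log2 difference ran from -0.64 to 0.50 for psma6a, -0.48 to 0.41 for psmb1, 0.15 to 0.45 for psmb8a, -0.61 to 0.58 for psmc3, -0.46 to 0.78 for psmd11b, -0.25 to 0.68 for psmd9, -1.32 to 0.47 for psme1 and -0.40 to 0.71 for psmf1. With the probe sets averaged, psmf1 had -0.0029. The sign changed at 10 to 27 of the 47 genes leaving out 1 array and at 0 to 3 under the other alternatives apart from the crossed block. Genes at least 2-fold lower in set 1 numbered 3 with quantile normalization or median centring and 2 with averaged probe sets, against 1. Those 2-fold higher in set 2 numbered 1 with averaged probe sets, against 2. The shares of all probe sets past 2-fold under these alternatives were not computed, so these counts are no result about the members. Genes with both cold arrays above both normal arrays numbered 2 under either scaling and at the 60th percentile, against 4, and those below numbered 0 with median centring, against 1. Leaving out 1 array they numbered 5 to 28 and 2 to 29. With an array fewer to order, more genes can meet this rule. The share of all probe sets that met it was not computed under any alternative. These counts are thus no result about the members. In the limma fits without 1 array, the lone array of a label was assumed to vary like those of the other label. Signals near the median of all probe sets, as of psmb8a, psmb9a and psma6l, give less certain ratios.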
